A study of Mus musculus with 23 samples.

Results

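The hormone FGF21, its receptor pair KLB and FGFR1, the adipokines adiponectin, leptin and resistin, the adiponectin receptor ADIPOR2, and the batokines Meteorin-like and BMP8B were followed through their genes in brown adipose tissue (BAT). The 9 genes Fgf21, Klb, Fgfr1, Adipoq, Adipor2, Lep, Retn, Metrnl and Bmp8b were taken by symbol from a table of 14651 genes, and all 9 were found. RNA came from BAT of male C57BL/6 mice aged 8 to 12 weeks, in 4 groups. All mice were Mcu[fl/fl], homozygous for loxP sites around an exon of Mcu, which encodes the pore of the mitochondrial calcium uniporter. Controls carried this allele alone, and BAT-Mcu-KO mice were Mcu[fl/fl];Ucp1-Cre, so that Cre was made only where the Ucp1 promoter is active and other cells of the tissue kept Mcu. At RT there were 6 control and 6 BAT-Mcu-KO mice, and after 6 h at 4°C there were 5 control and 6 BAT-Mcu-KO mice. By the protocol mice at 4°C were housed singly, without bedding and, unless stated otherwise, without food, and food access at RT is not given for these samples. Cold, lack of food and single housing therefore cannot be told apart, and "cold" below stands for all of them.

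FGF21 is a hormone of the FGF family that acts through FGFR1 on cells that also carry the co-receptor β-Klotho (KLB). It is made by liver and, under stress or adrenergic drive, by brown adipocytes. Adiponectin is the most abundant hormone of fat cells and acts through ADIPOR1 and ADIPOR2, while leptin reports fat stores to the brain and is made mainly by white adipocytes. Resistin is an adipocyte peptide of rodents. Meteorin-like and BMP8B are secreted factors that brown fat releases on activation, and are counted among the batokines for that reason.

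Sequencing gave 7129271 to 21006347 reads per mouse over the genes of the table. Levels are normalized counts, that is reads divided by the size factor of the library. Mcu, the targeted gene, had normalized counts of 70.8 to 136 in the 11 control mice and of 15.2 to 42.4 in the 12 BAT-Mcu-KO mice, and the genotypes did not overlap. The brown adipocyte markers were present in every group, with a summed level of 104666 or more in each mouse, most of it from Ucp1 and Cidea. Of these 8 markers, Ucp1 and Elovl3 were called higher by cold in both genotypes. Ebf2 and Prdm16 were called lower in both, and Cidea was called lower in control mice alone. Skeletal muscle markers varied widely, from a sum of 13.7 in 1 control mouse at 4°C to 60548 in 1 BAT-Mcu-KO mouse at RT, with none of the 10 markers called in any comparison. The sum was over 10000 in 8 libraries, 3 of control mice at 4°C, and among BAT-Mcu-KO mice 3 at RT and 2 at 4°C. Calls of the genes described below by cold that were lost without these 8 libraries are given both ways. A difference was called at an adjusted p-value under 0.05 with limma, adjusted over all 14651 genes by the Benjamini-Hochberg method. In bulk tissue, fewer cells of a type and less RNA per cell cannot be told apart.

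Cold called 7 of the 9 genes in control mice, 3 higher and 4 lower, where 46% of all genes were called, 22.3% higher and 23.7% lower. In BAT-Mcu-KO mice it called 6 of 9, 3 higher and 3 lower, where 43.3% of all genes were called, 21.4% higher and 21.9% lower. Fgf21, Bmp8b and Metrnl rose in both genotypes, and Lep and Adipor2 fell in both, Adipor2 in BAT-Mcu-KO mice close to the threshold. A gene entered the table with 8 reads or more in 6 or more samples. On mice at RT alone Fgf21 and Bmp8b would not have entered, and on mice at 4°C alone Lep would not have. These members were therefore kept only with the groups where they are high. Without the 8 libraries rich in muscle markers 5 of 9 were called in control mice and 6 of 9 in BAT-Mcu-KO mice. The groups of control mice at RT and 4°C did not overlap for 5 of the 9 genes, where 25.2% of all genes did not. Between the BAT-Mcu-KO groups 3 of the 9 did not overlap, where 24.2% of all genes did not. The median log2 difference of the 9 genes by cold was −0.38 in control mice and −0.23 in BAT-Mcu-KO mice, beside −0.02 for all genes in each genotype.

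**Figure D1:**
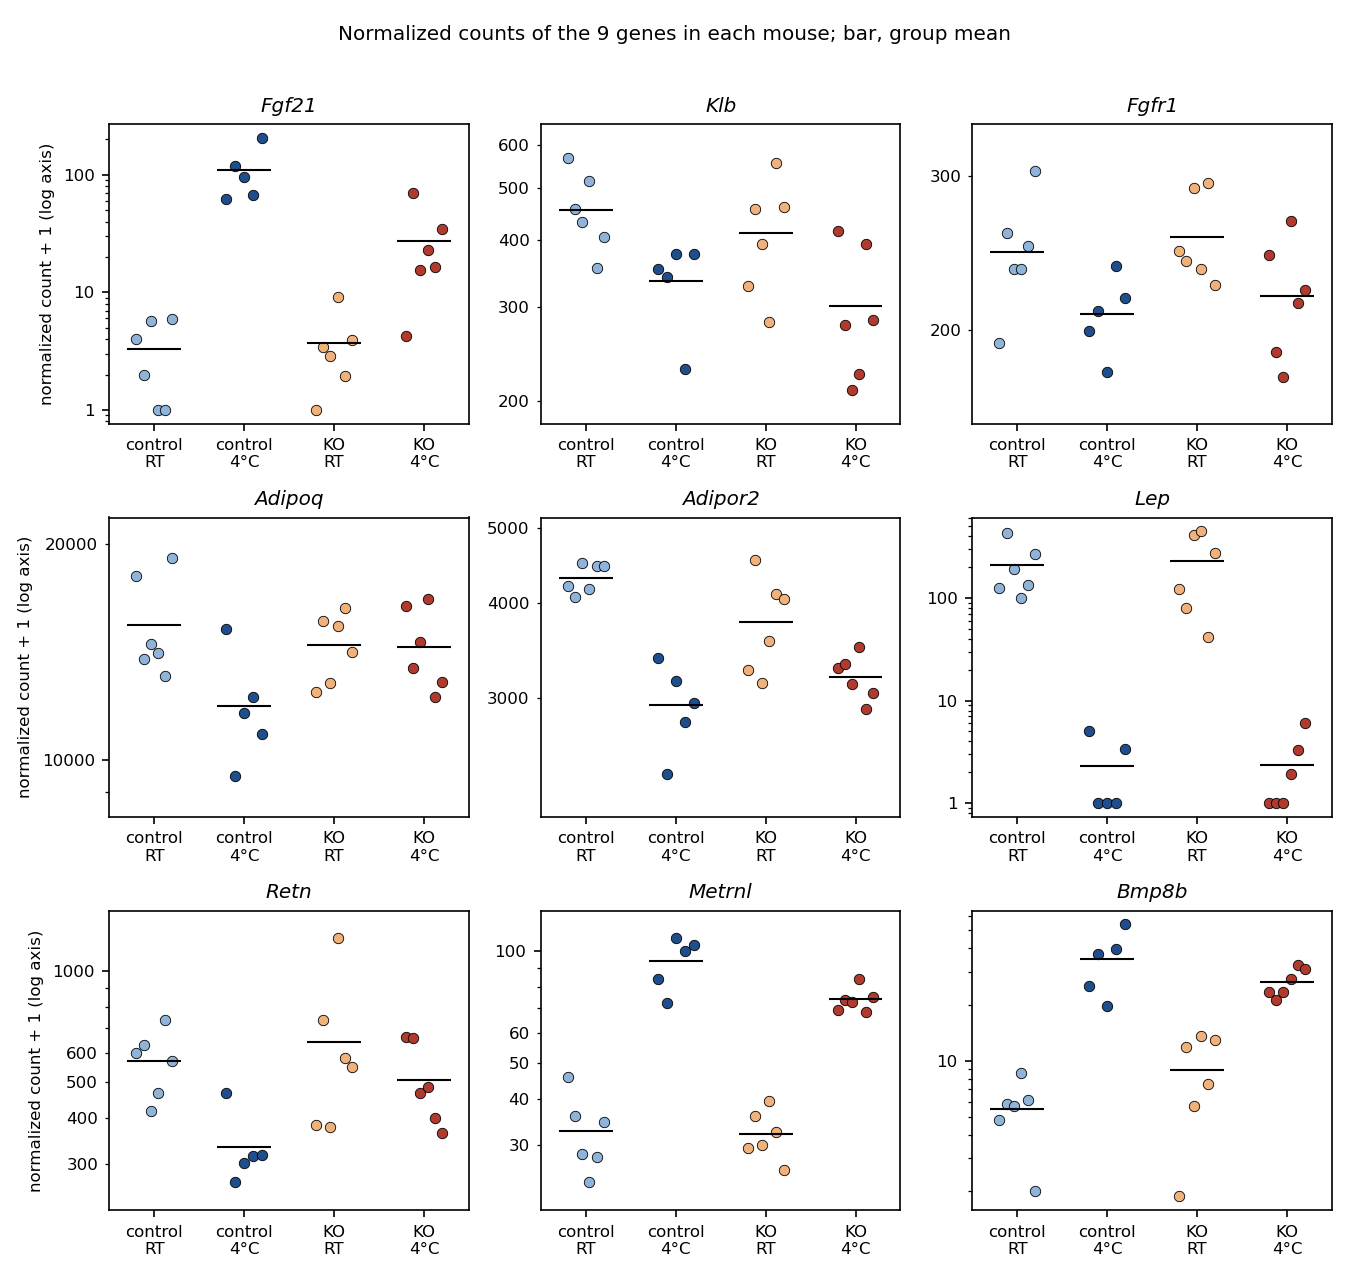
Normalized count + 1 on a log axis for each of the 9 genes, with 1 point per mouse, n = 5–6 per group, and a bar at the group mean + 1. Lep lies at or below 5.01 in every mouse at 4°C and at 40.9 or above in every mouse at RT, while Fgf21 reaches 205 in control mice at 4°C and at most 68.4 in BAT-Mcu-KO mice at 4°C.

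Fgf21 and Lep made the largest moves of the 9 genes, in opposite directions, and their promoters are shown for that reason. The sequences run from 250 bases before the RefSeq start site to 50 bases after it, on GRCm38.p6, and are written 5′ to 3′ on the strand of the gene. The Fgf21 window is chr7:45615441-45615740 on the minus strand, and the Lep window is chr6:29059971-29060270 on the plus strand. Capitals mark matches to motifs searched on both strands. In Fgf21 these are a C/EBP-ATF element (TGATGNAAN) that starts 140 bases before the start site and a CRE half-site (TGACG) that starts 68 bases before it, both read on the opposite strand. In Lep the capitals mark the C/EBP palindrome TTGCGCAA, which starts 55 bases before the start site.
Fgf21: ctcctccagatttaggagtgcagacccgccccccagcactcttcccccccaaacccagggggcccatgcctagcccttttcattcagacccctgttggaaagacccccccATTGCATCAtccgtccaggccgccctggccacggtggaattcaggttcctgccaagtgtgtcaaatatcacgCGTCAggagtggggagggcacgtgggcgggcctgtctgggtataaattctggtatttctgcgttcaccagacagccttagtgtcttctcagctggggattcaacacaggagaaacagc
Lep: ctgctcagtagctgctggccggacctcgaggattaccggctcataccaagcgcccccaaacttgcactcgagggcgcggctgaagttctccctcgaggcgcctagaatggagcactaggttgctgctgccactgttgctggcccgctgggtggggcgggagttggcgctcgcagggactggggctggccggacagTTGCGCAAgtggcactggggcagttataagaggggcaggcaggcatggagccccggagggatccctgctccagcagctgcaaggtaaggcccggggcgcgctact
Of 32851 mouse promoter windows of this length, 3.95% held the C/EBP-ATF element, 20.8% the CRE half-site and 0.183% the C/EBP palindrome. The CRE half-site also occurs within the full CRE (TGACGTCA), which 1.79% of windows held. Windows were found for 8 of the 9 genes, all but Fgfr1. Klb and Adipor2 held a CRE half-site, and none of the 8 windows held the full CRE or the nuclear receptor half-site AGGTCA, found in 16.3% of all windows. These are matches of letters, and binding was not measured.

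Fgf21 (chr7:45613886-45615490, minus strand, 3 exons) was close to absent at RT and rose steeply in the cold, more in control than in BAT-Mcu-KO mice by its means. In control mice at RT its normalized counts ran from 0 to 4.97 with a median of 2.00, on 0 to 5 reads per mouse. The 5 control mice at 4°C had 60.7, 117, 94.6, 66.8 and 205, on 30 to 256 reads. Every one of them was above every control mouse at RT. BAT-Mcu-KO mice had 0 to 8.06 at RT, with a median of 2.15 and 0 to 9 reads. At 4°C they had 3.29, 68.4, 14.4, 22.0, 15.5 and 33.4, on 5 to 78 reads. Of these 6 mice, 5 were above every BAT-Mcu-KO mouse at RT, and replicate 1 stayed within the range at RT. In that mouse Lep (0), Metrnl (68.4) and Bmp8b (22.3) were outside the range of the BAT-Mcu-KO mice at RT, while Adipor2 was within it and Klb, at 415, was the highest of its group. The ratio of summed reads, scaled for depth, was 48.8 in control mice (95% interval 29.3 to 87.7, 530 against 15 reads) and 9.43 in BAT-Mcu-KO mice (5.72 to 16.6, 176 against 17 reads). These intervals cover counting error only. On the log2(normalized count + 1) scale the rise was 5.29 ± 0.62 (SE) in control mice (limma adjusted p = 1.6e-07) and 2.74 ± 0.59 in BAT-Mcu-KO mice (adjusted p = 5.45e-04). Without BAT-Mcu-KO replicate 1 at 4°C the latter was 3.18.

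Between the genotypes at 4°C, Fgf21 was 4.53-fold higher in control mice by summed reads (95% counting interval 3.81 to 5.41), and every control mouse exceeded 5 of the 6 BAT-Mcu-KO mice. BAT-Mcu-KO replicate 2, at 68.4, lay within the control range. The log2 difference was −2.33 ± 0.62 (SE) with an unadjusted p = 9.5e-04, and it was not called over all genes (adjusted p = 0.284). Its adjusted p ranged from 0.0124, with a pseudocount of 10 in place of 1, to 0.62, without the 8 libraries rich in muscle markers, where the difference was −1.86. The test of the interaction, the cold response of BAT-Mcu-KO mice minus that of control mice, gave −2.55 ± 0.86 with an unadjusted p = 0.00655 and an adjusted p = 0.78. At RT the genotypes had means of 2.28 ± 2.27 (SD, n = 6) and 2.71 ± 2.83 (SD, n = 6), and both rest on few reads.

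Klb and Fgfr1, which together form the receptor for FGF21, were lower at 4°C by about the same amount in both genotypes, and this passed the test only for Klb in BAT-Mcu-KO mice. Klb (chr5:65348314-65384007, plus strand) had 353 to 568 normalized counts in control mice at RT, with a median of 443, and 352, 340, 376, 229 and 376 in control mice at 4°C. These groups overlapped, and 3 of the 5 mice at 4°C were below every mouse at RT. In BAT-Mcu-KO mice Klb spanned 280 to 556 at RT, against 209 to 415 at 4°C. The log2 difference by cold was −0.45 ± 0.19 (SE) in control (limma adjusted p = 0.0516) and −0.47 ± 0.18 in BAT-Mcu-KO mice (adjusted p = 0.0342), a level 26.3% and 27.2% lower by the means. Both values lie at the threshold, and without control replicate 4 at 4°C, the lowest of its group, the difference in control mice was −0.31 (adjusted p = 0.182). In control mice 7 of 12 other settings passed it, and so did leaving out 9 single libraries, namely control replicates 5 at RT and 3 and 5 at 4°C, and BAT-Mcu-KO replicates 4 and 5 at RT and 1, 3, 4 and 5 at 4°C (adjusted p 0.031 to 0.0488). In BAT-Mcu-KO mice the call was lost without any 1 of BAT-Mcu-KO replicates 2, 5 and 6 at RT and 2, 3, 4 and 6 at 4°C (adjusted p 0.0534 to 0.0994), without the variance trend (0.0514) and with only the 2 compared groups (0.0549).

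Fgfr1 (chr8:25513654-25575718, plus strand), the receptor tyrosine kinase of the pair, had a mean of 245 ± 36.2 (SD, n = 6) in control mice at RT, which compares with 208 ± 21.5 (SD, n = 5) at 4°C. In BAT-Mcu-KO mice the means were 254 ± 29.8 at RT and 218 ± 33.4 at 4°C (SD, n = 6 each). The log2 difference by cold was −0.23 ± 0.12 (SE) in each genotype, with limma adjusted p = 0.127 for control mice and 0.117 for BAT-Mcu-KO mice, and the mice of the groups overlapped. It was called in control mice under 75th percentile scaling (adjusted p = 0.023), quantile normalization (0.0402) and without control replicate 1 at RT (0.0498). Per kilobase of exon, Klb exceeded Fgfr1 in every mouse. The lengths cover all annotated exons, 4549 bases for Klb and 9875 for Fgfr1, and the ratio of the pair depends on them. Without this scaling Fgfr1 exceeded Klb in control replicate 4 (236 against 229) and BAT-Mcu-KO replicate 4 (265 against 224) at 4°C. The ratio of the pair per kilobase had a median of 3.92 in control mice at RT and 3.77 at 4°C, and of 3.53 and 2.99 in BAT-Mcu-KO mice, with ranges that overlapped among all 4 groups. Neither gene was called by genotype, with log2 differences of −0.16 and −0.18 for Klb and of 0.06 and 0.06 for Fgfr1 at RT and 4°C.

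Among 18 other genes of FGF receptor signalling, 9 rose and 2 fell by cold in control mice, and 9 rose and 2 fell in BAT-Mcu-KO mice. The shares over all genes were 22.3% higher and 23.7% lower in control mice, and 21.4% and 21.9% in BAT-Mcu-KO mice. Spry4, a feedback inhibitor of receptor tyrosine kinase signalling, went from 54.6 to 466 in control mice, a log2 rise of 2.97 ± 0.27 (SE, limma adjusted p = 1.81e-09), and rose by 2.61 ± 0.25 in BAT-Mcu-KO mice. Dusp6, the phosphatase that turns off ERK, rose by 2.90 ± 0.24 and by 3.01 ± 0.23. Spred2, another inhibitor of the Ras-ERK pathway, rose by 1.62 and 1.65. Fgfrl1, an FGF receptor that lacks the kinase domain, and the docking protein gene Gab1 fell by 1.35 and 1.29 on the log2 scale in control mice, with −1.39 and −1.50 in BAT-Mcu-KO mice. Of the other receptors, Fgfr3 rose by 1.39 and 1.00 (adjusted p = 7.61e-04 and 0.00863), while Fgfr2 gave −0.51 and 0.52 and passed in neither genotype (0.374 and 0.354). Leaving out 1 library moved the value of Fgfr2 in control mice between −1.01, without control replicate 1 at 4°C, where it passed (adjusted p = 0.044), and −0.11. Without the 8 libraries rich in muscle markers 5 genes of the list rose and 2 fell in each genotype, and Fgfr3 passed in neither (adjusted p = 0.0891 and 0.101). The endothelial cell markers moved with cold too. Of 7 markers, 4 rose and 1 fell in control mice and 4 rose in BAT-Mcu-KO mice, and their summed level went from 3851–5582 at RT to 6799–11527 at 4°C in the controls. For BAT-Mcu-KO mice the sum went from 4082–5777 to 6375–10613. No defining endothelial marker was at 0 in a group, and their part in the changes of the FGF genes was not tested. None of the 18 genes was called by genotype at either temperature or in the interaction by limma.

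Adipoq (chr16:23146536-23158028, plus strand), the adiponectin gene, had the highest level of the 9 genes per kilobase of exon. Its level was lower in the cold in control mice and differed little in BAT-Mcu-KO mice. Control mice at RT had 13067 to 19115 normalized counts, with a median of 14281, and control mice at 4°C had 15201, 9482, 11619, 12233 and 10863. Of the 5 mice at 4°C, 4 were below every control mouse at RT. BAT-Mcu-KO mice had 12432 to 16280 at RT and 12225 to 16784 at 4°C, and these ranges nearly coincided. The log2 difference by cold was −0.38 ± 0.12 (SE) in control mice (limma adjusted p = 0.0115), and −0.01 ± 0.11 in BAT-Mcu-KO mice (adjusted p = 0.959). Without the 8 libraries rich in muscle markers, which left 2 control mice at 4°C, the value in control mice was −0.20 and no longer passed (adjusted p = 0.396). The difference between these responses was 0.37 ± 0.17 with an unadjusted p = 0.0345 and an adjusted p = 0.806, so a difference in the cold response of Adipoq was not called.

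Adipor2 (chr6:119353150-119417704, minus strand), the receptor linked to PPARα activity in liver, fell in the cold in both genotypes. Control mice at RT were tightly grouped at 4063 to 4507 normalized counts, and all 5 control mice at 4°C, with 3380, 2383, 3152, 2790 and 2958, were below them. BAT-Mcu-KO mice spanned 3138 to 4547 at RT, against 2903 to 3496 at 4°C, and these groups overlapped. The fall was 0.56 ± 0.09 (SE) on the log2 scale in control mice (limma adjusted p = 2.02e-05) and 0.23 ± 0.09 in BAT-Mcu-KO mice (adjusted p = 0.0381). The call in BAT-Mcu-KO mice was lost without any 1 of BAT-Mcu-KO replicates 2, 5 and 6 at RT and 3, 5 and 6 at 4°C (adjusted p 0.0633 to 0.118), and without the variance trend (0.0600). The interaction was 0.33 ± 0.13, with an unadjusted p = 0.0154 and an adjusted p = 0.78. Adipor1, the other classical receptor, moved the other way in control mice, with a log2 rise of 0.41 (adjusted p = 0.0187) that did not pass without control replicate 3 or 5 at 4°C (0.0557 and 0.0744), under 75th percentile scaling or quantile normalization, or without the muscle-rich libraries. In BAT-Mcu-KO mice it gave 0.06. Cdh13, which encodes the adiponectin-binding T-cadherin, gave 0.14 and 0.01 and was not called.

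Of all genes, 22.3% rose and 23.7% fell by cold in control mice, and 21.4% rose and 21.9% fell in BAT-Mcu-KO mice. Of 16 genes of adiponectin assembly and signalling, Adipor1 and Cdh13 among them, 5 rose and 6 fell by cold in control mice, and 3 rose and 8 fell in BAT-Mcu-KO mice. The count of 8 was 5 without BAT-Mcu-KO replicate 2 at RT, and 5 without the 8 libraries rich in muscle markers. Acer2, an alkaline ceramidase, rose by 1.40 on the log2 scale in control and by 1.64 in BAT-Mcu-KO mice. Ero1l, an oxidase of the endoplasmic reticulum that takes part in the release of adiponectin, rose by 1.21 and 0.88. AMPK is the kinase downstream of the receptors. Of its genes, Prkaa2, Prkag2 and Prkag1 were among the largest called changes of the list in control mice. Prkaa1, Prkab1 and Prkab2 were measured and are not described here. Prkaa2, a catalytic subunit, rose by 0.69 in control mice (limma adjusted p = 1.74e-04) and gave 0.08 in BAT-Mcu-KO mice (adjusted p = 0.663). The regulatory subunits Prkag2 and Prkag1 fell by 0.91 and 0.64 in control mice and by 1.18 and 0.47 in BAT-Mcu-KO mice, and Stk11, which encodes the upstream kinase LKB1, fell by 0.62 and 0.36, the latter not passing without any 1 of BAT-Mcu-KO replicates 2 and 6 at RT and 6 at 4°C. None of the 16 genes was called by genotype or in the interaction.

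Lep (chr6:29060220-29073877, plus strand) made the largest change of the 9 genes, a near loss of its transcript in the cold. Control mice at RT had 125, 433, 193, 100.1, 133 and 268 normalized counts, on 92 to 447 reads. At 4°C their counts were 4.05, 0, 0, 0 and 2.41, on at most 3 reads. BAT-Mcu-KO mice at RT spanned a wider range, with 123, 79.6, 409, 448, 40.9 and 273, and at 4°C had 0, 0, 0, 0.915, 2.32 and 5.01, on at most 6 reads. No mouse at 4°C overlapped a mouse at RT. By summed reads the level at RT was 189-fold higher in control mice (95% counting interval 80.9 to 584, 1305 against 5 reads) and 161-fold higher in BAT-Mcu-KO mice (87.2 to 336, 1464 against 10 reads). The limma fall was 6.70 ± 0.61 (SE) on the log2(normalized count + 1) scale in control mice (adjusted p = 2.08e-09) and 6.50 ± 0.58 in BAT-Mcu-KO mice (adjusted p = 1.63e-09). These values depend on the pseudocount, and with a pseudocount of 10 the differences were −4.12 and −3.99. Within the RT groups the highest mouse had 4.33 times the lowest in control and 11.0 times in BAT-Mcu-KO mice, a wider range than any other member at RT except Bmp8b and Fgf21, both of few reads. A difference by genotype was not called at RT (−0.14 ± 0.58 on the log2 scale), and at 4°C a difference was not detectable on so few reads.

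White adipocyte markers were examined beside Lep. Of 6 markers 3 were measured, Hoxc8, Slc7a10 and Nnat, and the other 3 were not analysed here. Their summed level was 122 to 342 in control mice at RT and 105 to 181 at 4°C, and 150 to 294 and 96.8 to 208 in BAT-Mcu-KO mice. None was called in control mice, and Hoxc8 and Nnat fell in BAT-Mcu-KO mice by 1.11 and 1.05 on the log2 scale. No marker was at 0 in a group, and their part in the fall of Lep was not tested.

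Retn (chr8:3655770-3660110, plus strand), the resistin gene, was lower in the cold in control mice. They had 418 to 738 normalized counts at RT, with a median of 584, and 467, 267, 302, 316 and 318 at 4°C. Of the 5 mice at 4°C, 4 were below every control mouse at RT. In BAT-Mcu-KO mice the range was 377 to 1225 at RT and 364 to 663 at 4°C, and the groups overlapped. The log2 difference by cold was −0.77 ± 0.23 (SE) in control mice (limma adjusted p = 0.00804) and −0.25 ± 0.22 in BAT-Mcu-KO mice (adjusted p = 0.377). The interaction was 0.52 ± 0.32 (SE), with a limma unadjusted p = 0.119 and adjusted p = 0.86. A difference in the cold response of Retn was therefore not called. Without the 8 libraries rich in muscle markers the value by cold in control mice was −0.57 and did not pass (adjusted p = 0.0662). At 4°C the mean was 506 ± 128 (SD, n = 6) in BAT-Mcu-KO and 334 ± 77.2 (SD, n = 5) in control mice, a log2 difference of 0.59 ± 0.23 with an unadjusted p = 0.018 and an adjusted p = 0.613. Retnla, a resistin-like gene, gave −0.51 by cold in control mice, gave −0.11 in BAT-Mcu-KO mice and was not called.

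In the list of leptin and resistin signalling, 4 of 12 genes rose and 1 fell by cold in control mice, and 3 rose and 1 fell in BAT-Mcu-KO mice. Over all genes the shares were 22.3% higher and 23.7% lower in control mice, and 21.4% and 21.9% in BAT-Mcu-KO mice. Without the 8 libraries rich in muscle markers 1 rose and 0 fell in BAT-Mcu-KO mice, and with 75th percentile scaling 2 rose in control mice. Irs2, an adaptor of the insulin receptor that JAK2 can also phosphorylate, rose from 253 to 1446 in control mice, by 2.51 ± 0.20 (SE) on the log2 scale, and by 2.46 ± 0.19 in BAT-Mcu-KO mice (limma adjusted p = 2.68e-10 and 1.84e-10). Sh2b1, which enhances JAK2 activity, rose by 0.65 and 0.35, of which the latter became 0.13 (adjusted p = 0.523) without the muscle-rich libraries. Irs1 rose by 0.52 in control mice (adjusted p = 0.0335) and gave 0.39 in BAT-Mcu-KO mice (0.097). The rise of Irs1 in control mice did not pass without any 1 of control replicates 5 and 6 at RT and 1 and 3 at 4°C, nor with 75th percentile scaling or quantile normalization (adjusted p = 0.0884 and 0.0861). Leprot, whose product limits leptin receptors at the cell surface, fell by 0.53 and 0.31. The fall in BAT-Mcu-KO mice did not pass without any 1 of BAT-Mcu-KO replicates 2 and 6 at RT and 3 and 4 at 4°C, or without the muscle-rich libraries (−0.32, adjusted p = 0.184). The leptin receptor gene itself was not analysed here.

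**Figure D2:**
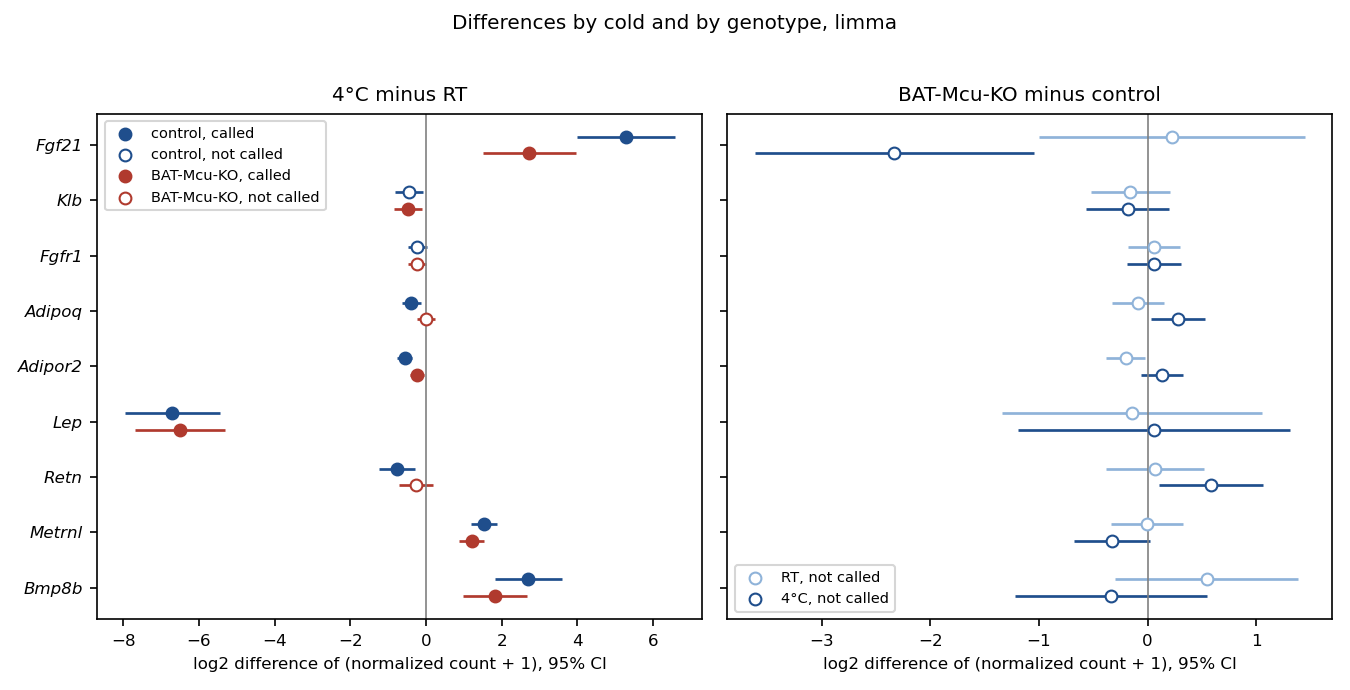
Log2 differences of the 9 genes by limma with 95% confidence intervals, 4°C minus RT on the left and BAT-Mcu-KO minus control on the right, n = 5–6 per group. Filled points passed an adjusted p of 0.05 over all genes, and every point on the right is open, Fgf21 at 4°C (−2.33) being the farthest from 0.

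The batokine genes Metrnl and Bmp8b rose in the cold in both genotypes with no overlap between mice at RT and at 4°C. Metrnl (chr11:121701544-121716306, plus strand), whose product acts on immune cells of fat, had 22.8 to 44.8 normalized counts in control mice at RT, with a median of 30.6, and 82.9, 71.3, 107, 99.2 and 103 at 4°C. BAT-Mcu-KO mice had 24.7 to 38.5 at RT and 67.4 to 83.2 at 4°C. The 6 cold BAT-Mcu-KO mice were closely grouped, with a coefficient of variation of 7.76%. The log2 rise was 1.53 ± 0.17 (SE) in control mice (limma adjusted p = 6.3e-08) and 1.21 ± 0.16 in BAT-Mcu-KO mice (adjusted p = 1.25e-06), or 2.92-fold and 2.34-fold by the means. At 4°C the genotypes differed by −0.33 ± 0.17, with an unadjusted p = 0.0662 and an adjusted p = 0.735.

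Bmp8b (chr4:123105165-123132099, plus strand), a ligand of the BMP family that sensitizes brown adipocytes to adrenergic input, had the lowest mean level of the 9 genes per kilobase of exon at RT, within the range of Fgf21. Control mice at RT had 0.993 to 7.62 normalized counts on 1 to 7 reads, and those at 4°C had 24.3, 36.4, 18.7, 38.9 and 52.9 on 12 to 66 reads. BAT-Mcu-KO mice ran from 0.863 to 12.5 on 1 to 14 reads at RT and from 20.2 to 31.8 on 14 to 41 reads at 4°C. By summed reads the rise was 8.38-fold in control mice (95% counting interval 5.59 to 13.0) and 3.36-fold in BAT-Mcu-KO mice (2.43 to 4.72). The limma log2 values were 2.71 ± 0.43 (SE, adjusted p = 1.2e-05) and 1.82 ± 0.41 (adjusted p = 7.58e-04), and the interaction, −0.88 ± 0.59, had an unadjusted p = 0.148. In the annotation 8.74% of the exon bases of Bmp8b are shared with the transcript Gm17244 and 3.43% with Ppie on the other strand, and 7.68% of its 25-base words also occur in Bmp8a. Since only uniquely mapped reads were counted, without regard to strand, reads from these stretches may be missing from the count of Bmp8b. How reads over overlapping genes were assigned is not given, and the effect was not tested. Fgf21, Klb, Adipoq and Lep share none of their 25-base words with another gene, while Fgfr1 shares 5.54%, Retn 4.76%, Metrnl 0.695% and Adipor2 0.033%. In Fgfr1 1.66% of the exon bases are also shared with the antisense transcript Gm16159. Reads from these stretches may be missing from the counts of these genes too, and this was not tested.

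By cold 22.3% of all genes rose and 23.7% fell in control mice, and 21.4% and 21.9% did in BAT-Mcu-KO mice. Among 24 other BMP ligands, receptors and SMADs, 5 genes rose and 1 fell by cold in control mice, and 7 rose and 2 fell in BAT-Mcu-KO mice. The count of 7 was 4 without BAT-Mcu-KO replicate 1 at RT and 4 without the 8 libraries rich in muscle markers, where 1 fell. Smad7, an inhibitory SMAD, rose by 1.92 ± 0.33 (SE) on the log2 scale in control and by 1.95 ± 0.31 in BAT-Mcu-KO mice (limma adjusted p = 2.83e-05 and 1.32e-05). The receptor genes Acvr1c and Acvr2a rose by 0.54 and 0.69 in control mice and by 0.54 and 0.40 in BAT-Mcu-KO mice, of which Acvr2a in BAT-Mcu-KO mice did not pass without any 1 of BAT-Mcu-KO replicates 2 and 6 at RT and 1 and 3 at 4°C, or without the muscle-rich libraries (adjusted p = 0.175). Acvr1c in control mice was 0.35 with quantile normalization and did not pass (adjusted p = 0.0512). Id2, a common BMP target gene, fell by 1.13 and 0.96. Genotype called none of the 24 genes at either temperature.

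In a list of 33 other secreted factors of fat, 7 rose and 7 fell by cold in each genotype. None of the 33 was called by genotype at either temperature or in the interaction. Markers of other cells of the tissue moved beside them in BAT-Mcu-KO mice. Of 7 macrophage markers, Cd68, Lyz2 and Mrc1 rose in these mice and none was called in control mice, and the summed level was 472 to 830 at RT and 783 to 1221 at 4°C in BAT-Mcu-KO mice, and 551 to 913 and 602 to 941 in control mice. Of 6 fibroblast markers Dcn alone rose in BAT-Mcu-KO mice and none was called in control mice, with sums of 2175 to 3804 at RT and 2918 to 4238 at 4°C in the former and 2663 to 3567 and 2932 to 4519 in the latter. No marker of either list was at 0 in a group, the difference between the genotypes was not called for any of them, and their part in the changes of the secreted factors was not tested. Fst, the gene of the activin and BMP antagonist follistatin, went from 41.0 to 248 in control mice, a log2 rise of 2.46 ± 0.35 (SE, limma adjusted p = 3.06e-06), and rose by 2.86 ± 0.34 in BAT-Mcu-KO mice. Vegfa, the vascular growth factor gene, rose by 0.82 and 0.76. Epdr1, which encodes a batokine, rose by 1.20 in control mice (adjusted p = 0.0132; 0.0537 without control replicate 2 at 4°C, and 0.207 without the muscle-rich libraries) and gave 0.45 in BAT-Mcu-KO mice (0.351). Angptl2, an angiopoietin-like factor, fell, with log2 differences of −2.04 and −2.12. Igf1, the insulin-like growth factor gene, gave −1.82 and −1.47, and Ptgds, a prostaglandin D synthase, gave −1.28 and −1.50, all past the threshold. Without the muscle-rich libraries Ptgds was at −1.03 in control mice and did not pass (adjusted p = 0.0549). These lists have medians of 0.65, −0.06, 0.23, 0.05 and −0.04 by cold in control mice, in the order FGF, adiponectin, leptin and resistin, BMP and other secreted factors, beside −0.02 for all genes.

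**Figure D3:**
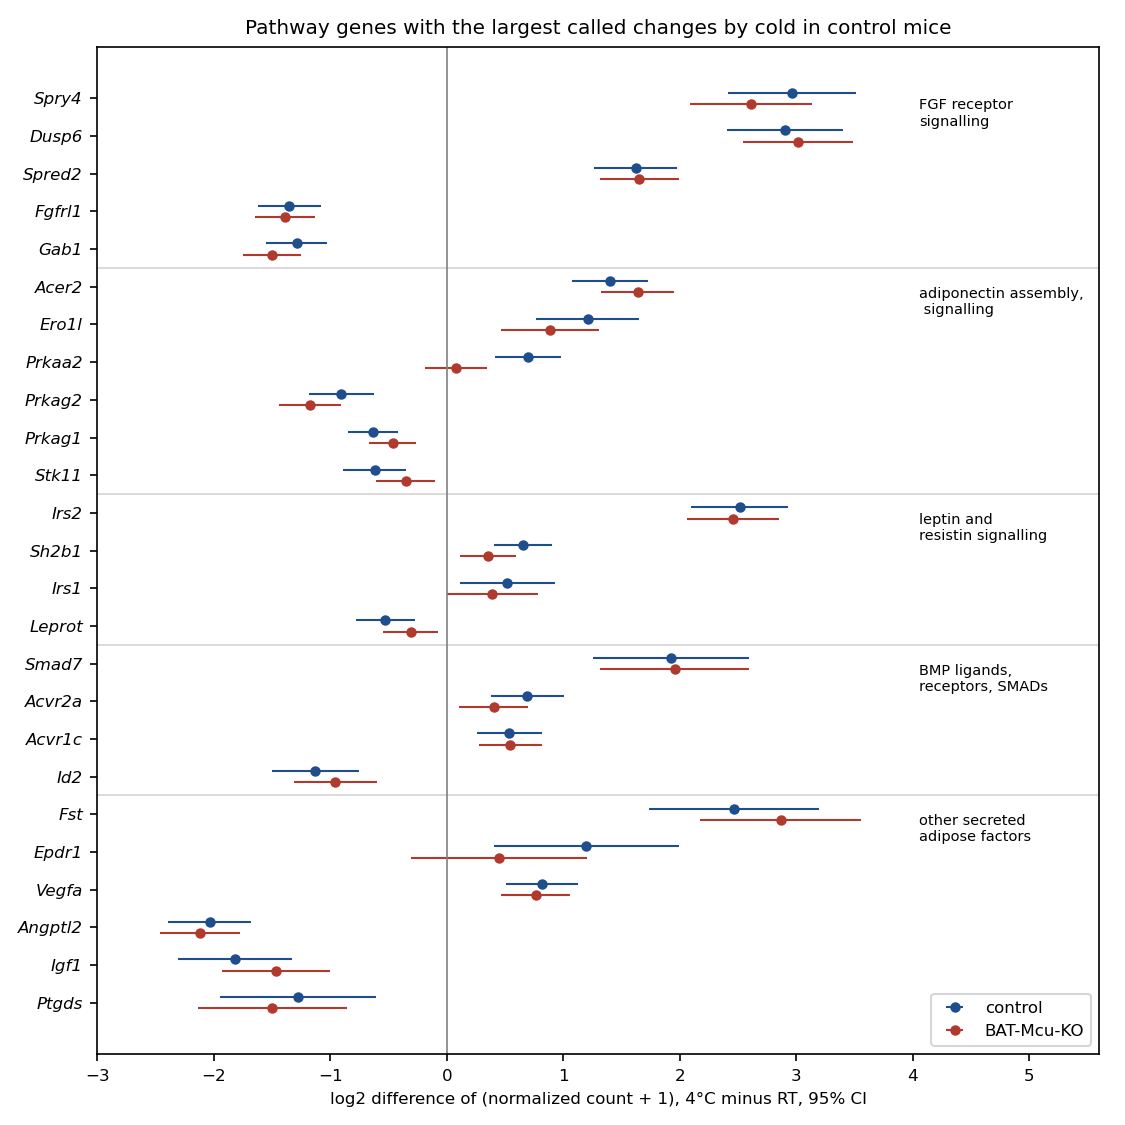
Log2 differences, 4°C minus RT, with 95% confidence intervals by limma, for the up to 3 largest called rises and falls of each list by cold in control mice, among genes with a mean normalized count of at least 50. Blue points are control and red points BAT-Mcu-KO mice; Spry4 and Dusp6 lie at 2.97 and 2.90 in control mice and Angptl2 at −2.04.

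By genotype, none of the 9 genes was called at RT or at 4°C by limma, DESeq2 or edgeR, where 0.0478% of all genes were called at RT and 0.0751% at 4°C by limma. At an unadjusted p under 0.05, 1 of the 9 was past the threshold at RT (Adipor2, log2 −0.20 ± 0.09 SE, 4 of 6 BAT-Mcu-KO mice below every control mouse), where 5.15% of all genes were. At 4°C 3 of the 9 were, Fgf21 lower and Adipoq and Retn higher in BAT-Mcu-KO mice, where 6.98% of all genes were. Adipoq differed by 0.28 ± 0.12 at 4°C (adjusted p = 0.667). No member separated the genotypes without overlap at either temperature, where 0.218% of all genes did at RT and 0.683% at 4°C. The interaction called 0 of the 9 by each of the 3 tools, where 0% of all genes were called by limma. At an unadjusted p under 0.05 it had 3 of the 9, Fgf21, Adipoq and Adipor2, where 5.99% of all genes were. For each of these 3 genes the log2 difference by cold was smaller in size in BAT-Mcu-KO than in control mice, and the tests did not show that the responses differ. The 95% interval of the difference at RT was −1.34 to 1.05 for Lep, which varied widely between mice, −0.30 to 1.39 for Bmp8b, which had few reads, and −0.18 to 0.30 for Fgfr1.

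**Figure D4:**
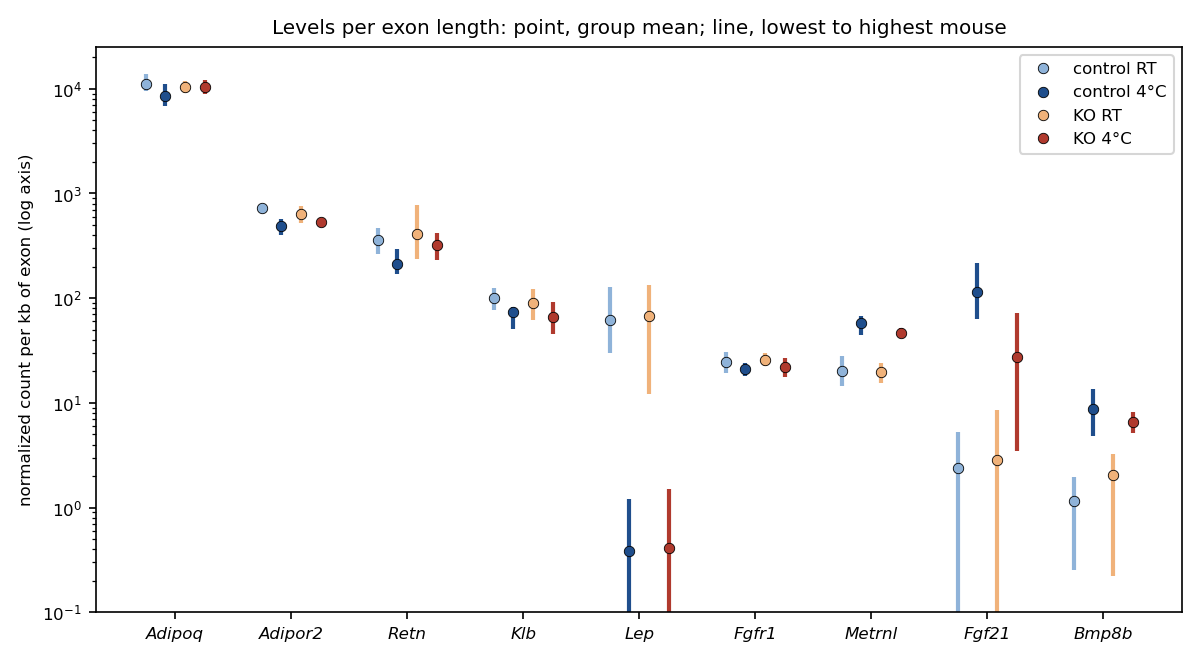
Normalized count per kilobase of exon on a log axis, with a point at the mean of each group and a line from the lowest to the highest mouse, n = 5–6 per group. A line that meets the lower edge at 0.1 includes mice at 0. Adipoq leads with 11179 in control mice at RT, and Fgf21 goes from 2.4 to 114 by cold in control mice.

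Per kilobase of exon, the order in control mice at RT was Adipoq (11179), Adipor2 (721), Retn (361), Klb (99.9), Lep (62.2), Fgfr1 (24.8), Metrnl (20.03), Fgf21 (2.4) and Bmp8b (1.17). The ranges of mice overlapped between Klb and Lep, Lep and Fgfr1, Fgfr1 and Metrnl, and Fgf21 and Bmp8b, so these neighbours cannot be ordered beyond their spread, while Adipoq, Adipor2, Retn and Klb were separated in every mouse. In control mice at 4°C Fgf21, at 114 ± 61.4 (SD, n = 5), had passed Klb, at 73.6 ± 13.4, by its mean with overlapping ranges, and Lep, at 0.385, was the lowest. In BAT-Mcu-KO mice at 4°C Fgf21 was at 27.5 ± 24.1 (SD, n = 6), below Klb at 65.9 ± 18.8 by the means, again with overlapping ranges. Lengths were those of all annotated exons of each gene, and these orders depend on them.

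The genes whose pattern over the 23 mice was most like that of each member were sought among genes with a mean normalized count of at least 50. For Fgf21 they were Phospho2 (Pearson r = 0.945) and Cars (0.941), for Metrnl Sars (0.969) and Ftl1 (0.962), and for Bmp8b Eaf1 (0.907) and Slc38a2 (0.903). Cars and Sars encode aminoacyl-tRNA synthetases, Slc38a2 an amino acid transporter and Ftl1 a ferritin chain. Lep was most like Angpt1 (0.965) and Adora1 (0.962), Adipoq most like Tmed3 (0.859) and Akip1 (0.828), and Adipor2 most like Vrk1 (0.862) and Pla2g16 (0.859). For Klb, Fgfr1 and Retn the highest values were 0.781 (Zbtb5), 0.748 (Ramp2) and 0.778 (Nupr1l). These correlations are descriptions over mice of 4 groups, and the points share the difference between temperatures. After each group mean was taken away r was 0.759 for Fgf21 and Phospho2, 0.694 for Fgf21 and Cars, and 0.664 for Metrnl and Sars. It was 0.833 for Adipoq and Tmed3 and 0.498 for Lep and Angpt1. Over the other named pairs it ran from 0.484 (Lep and Adora1) to 0.827 (Adipoq and Akip1). The pairs were picked from 9515 or 9516 genes by correlation over these same mice, so these values are not an independent check.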

How the data were processed

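RNA from BAT of 23 mice was sequenced after Smart-seq2 amplification of cDNA. Per the study's methods, the authors aligned reads to mm10 (GENCODE M7) with STAR 2.4.0j, counted uniquely mapped exonic reads with HTSeq irrespective of strand, and retained genes that had 8 reads or more in 6 or more samples. The deposited signal is normalized counts, reads divided by DESeq2 size factors. The values were whole multiples of 1 read in each sample (100% within 0.01), which gave back the reads. A deposited table of the authors' own comparisons (fold changes and p-values) was not used.

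The test was limma 3.58.1 (R 4.3.3) on log2(normalized count + 1), with 4 group means, all 23 samples and a variance trend over expression. Genes were called at a Benjamini-Hochberg adjusted p under 0.05 over 14651 genes. The comparisons were cold in each genotype, genotype at each temperature and the interaction. Samples were grouped by their labels and all columns were matched by name. The alternatives were a pseudocount of 0.5 or 10, filters on low values, 75th percentile scaling, quantile normalization, no trend, only the 2 compared groups, the replicate number as a block, DESeq2 1.42.0 and edgeR 4.0.16 run on reads recovered from the table, and the omission of 1 sample at a time. A fit without libraries rich in muscle markers was chosen after seeing the data. The tests were tried on simulated counts. Ratios of summed reads have exact 95% intervals, which cover counting error only, since PCR copies are not independent molecules.

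The 9 genes and the lists were chosen with earlier results of these data known. Named beside the members were fixed partner genes, the up to 3 called genes of largest rise and fall by cold in control mice in each list with a mean normalized count of at least 50, any list gene called by genotype, and the 2 genes most like each member. The lists also held genes that were not analysed here. Positions and exon lengths, taken over all annotated exons of a gene, are from GENCODE M21 on GRCm38, and promoters from RefSeq on GRCm38.p6. Tables were read with pandas 2.3.3 under Python 3.11.15 and figures drawn with matplotlib 3.10.9.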

Additional observations from a re-analysis of the deposited data

Results flagged for a closer look

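Klb in control mice at 4°C had 1 mouse far from the others. Replicate 4 had a normalized count of 229 on 312 reads, where the nearest of the other 4 mice had 340. On the log2(normalized count + 1) scale the gap was 0.796 of the range of the group, above the limit of 0.71 for 5 samples. Of 36 sets of 1 gene in 1 group examined, this was the only one with such a mouse, and chance alone gives about 1 in 20. Without this mouse the log2 difference of Klb by cold in control mice was −0.31 (limma adjusted p = 0.182).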

How the results depend on the processing

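In 12 alternatives and 23 fits that each left out 1 library, no member called by cold changed direction. With only genes whose normalized count reached 8 in all samples, which leaves out Fgf21, Lep and Bmp8b, 3 members were called by cold in BAT-Mcu-KO mice, and with a pseudocount of 10, 1 member (Fgf21) was called by genotype at 4°C. Differences that were not called changed sign as follows. Without the 8 libraries rich in muscle markers, log2 values were −0.44 (Fgf21), −0.0372 (Retn) and 0.0244 (Metrnl) by genotype at RT, −0.0571 (Adipor2) and 0.35 (Bmp8b) by genotype at 4°C, 0.24 (Bmp8b) for the interaction, 0.43 (Fgfr2) by cold in control mice, and −0.13 (Adipor1) and 0.63 (Retnla) by cold in BAT-Mcu-KO mice. With quantile normalization they were −0.24 (Lep) by genotype at 4°C, 0.0372 (Klb) and −0.0763 (Lep) for the interaction, and −0.10 (Adipor1) and −0.0699 (Cdh13) by cold in BAT-Mcu-KO mice. With 75th percentile scaling they were 0.0466 (Klb) for the interaction and −0.0409 (Cdh13) by cold in BAT-Mcu-KO mice. Lep by genotype at RT was 0.13 with DESeq2 and 0.13 with edgeR. The causes were not tested.

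Leaving out 1 library gave −0.0554 to 0.0360 (Adipoq), −0.0475 to 0.0666 (Cdh13) and −0.325 to 0.0383 (Retnla) by cold in BAT-Mcu-KO mice, −0.10 to 0.53 (Fgf21), −0.00764 to 0.123 (Fgfr1), −0.43 to 0.25 (Lep), −0.14 to 0.20 (Retn) and −0.0905 to 0.10 (Metrnl) by genotype at RT, −0.29 to 0.43 (Lep) by genotype at 4°C, and −0.0627 to 0.0680 (Fgfr1), −0.15 to 0.0717 (Klb) and −0.20 to 0.58 (Lep) for the interaction.

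The labels number the replicates in each group, and the correlations do not settle whether the numbers pair the mice. Between the groups at 4°C the correlation of deviations of same-numbered mice was 0.00422 to 0.427, with a mean of 0.21. Of these 5 correlations 4 were over 0.1, while each other pair of groups had at most 2, and in no pair of groups were all correlations over 0.1. Of the 5 control mice at 4°C, 3 correlated best with the BAT-Mcu-KO mouse of their own number. With the replicate number as a block, Lep by genotype at 4°C was −0.14, Fgfr1 in the interaction was −0.0110, Klb by cold was called in control mice (adjusted p = 0.0475), Adipor2 was no longer called in BAT-Mcu-KO mice (0.0604), and 7 genes in all were called by genotype at 4°C in place of 11.

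Over all genes, genotype at 4°C called 27 with DESeq2, 6 with edgeR, 7 without the trend, 2 with only the compared groups and 5 without the muscle-rich libraries. It called 3 without control replicate 2 at 4°C, 7 without control replicate 5 at 4°C and 6 without BAT-Mcu-KO replicate 4 at 4°C. More genes, 16 and 14, were called without control replicate 1 and without control replicate 4 at 4°C. Genotype at RT called 7, and 20, 3 and 4 with DESeq2, the compared groups and without the muscle-rich libraries. The interaction called 0, and 28 with DESeq2 and 1 without control replicate 1 at 4°C. Scaling to the 75th percentile moved the median of all genes by −0.12 by cold in control mice and the share of calls that were higher from 48.5% to 37.1%. Fgf21 and Bmp8b at RT and Lep at 4°C rest on few reads, which limits their comparison by genotype.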
